A study of Drosophila melanogaster with 2 samples.

Results

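The nuclear genes of oxidative phosphorylation were followed through a map of E(var)3-9 binding in Drosophila melanogaster embryos. They were taken by symbol from the protein-coding genes of the Ensembl annotation, as every gene named ND-, SdhA to SdhD, UQCR-, COX with a digit, or ATPsyn, for complexes I to V of the respiratory chain. The rule gave 87 of 13945 protein-coding genes, with 40 in complex I, 7 in complex II, 9 in complex III, 16 in complex IV and 15 in complex V. The rule reads symbols only, although it was drawn up with earlier results of these data known. Of the 87 genes, 24 have symbols ending in L, L1 or L2 after a subunit name, the annotation's mark for a duplicate, and 63 do not. The parent gene of 20 duplicates is itself a member, while COX6AL, COX6AL2, COX6CL and ATPsynepsilonL are copies of levy, cype and sun, which have other names. A few subunit genes with other names, among them blw, levy and cype, stand outside the rule and are described separately.

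Oxidative phosphorylation passes electrons from NADH and succinate through complexes I to IV to oxygen, and complex V, the ATP synthase, makes ATP from the proton gradient that results. Complex I oxidises NADH, complex II oxidises succinate, complex III passes electrons from ubiquinol to cytochrome c, and complex IV is cytochrome c oxidase. A handful of the subunits are encoded in mitochondrial DNA, and the genes described here encode the others, so their expression has to be matched to that of the mitochondrial genome. Many fly subunit genes have a second copy, and such copies are often expressed mainly in the testis. E(var)3-9 is a chromatin protein identified as an enhancer of variegation, the patchy silencing of genes placed beside heterochromatin.

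Chromatin from whole embryos of mixed sex, collected at 0 to 24 h, was sheared to 200 to 800 bp and precipitated with an antibody against GFP from a transgenic line in which GFP is joined to the C-terminus of E(var)3-9. There was 1 group with 2 biological replicates, numbered 2 and 3 and both from that line; the promoter that drives the fusion is not stated in the labels. The authors deposited a list of 30000 regions for each replicate, a joint list of 24963 regions, and 3438 joint regions that passed their IDR threshold on reproducibility, called IDR peaks here. These IDR peaks were the 3438 strongest of the joint list. A gene counted as occupied where the summit of an IDR peak lay within 500 bp of any of its transcription start sites (TSSs). Signal is the authors' own score for a region, without a stated scale. No untagged or control library was analysed here, and whole embryos hold many cell types, so occupancy in few cells cannot be told apart from weak occupancy in many.

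The sequences around the summits show the DNA at which IDR peaks were called at these genes. Chromatin was sheared to 200 to 800 bp, so these sequences do not mark the exact bases bound. They are given for 9 members from all 5 complexes, each read from the Release 6 genome (dm6) within 50 bp of the IDR summit, on the strand of the gene, with annotated exons trimmed off. Capitals mark matches on either strand to TATAAA, the core of the TATA box, or to CGATA, the core bound by the boundary protein BEAF-32. The 9 sequences do not show how common either motif is, which is given below for all 19 occupied members. ND-ASHI, ND-42 and ND-SGDH are accessory subunits of complex I and ND-49 is a core subunit. SdhC is a membrane anchor of complex II, UQCR-11 belongs to complex III and COX5B to complex IV. ATPsynCF6 is coupling factor 6 of the ATP synthase stalk and ATPsynbeta is its catalytic subunit.
ND-ASHI, chrX:6679321-6679421, minus strand: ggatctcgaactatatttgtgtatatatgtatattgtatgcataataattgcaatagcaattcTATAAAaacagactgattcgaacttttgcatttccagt
ND-42, chr3R:22027569-22027669, plus strand: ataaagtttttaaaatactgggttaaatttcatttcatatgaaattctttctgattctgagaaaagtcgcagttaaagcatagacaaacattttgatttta
ND-SGDH, chr3L:12138585-12138670, minus strand: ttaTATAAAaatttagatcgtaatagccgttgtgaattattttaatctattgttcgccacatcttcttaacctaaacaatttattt
ND-49, chr4:570840-570940, minus strand: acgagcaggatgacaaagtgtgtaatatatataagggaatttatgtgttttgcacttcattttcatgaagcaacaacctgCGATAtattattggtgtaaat
SdhC, chr3R:11210011-11210111, minus strand: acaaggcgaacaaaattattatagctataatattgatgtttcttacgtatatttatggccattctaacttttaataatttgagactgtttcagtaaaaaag
UQCR-11, chr3L:25120575-25120675, plus strand: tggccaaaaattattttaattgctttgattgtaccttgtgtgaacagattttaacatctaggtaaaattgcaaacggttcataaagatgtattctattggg
COX5B, chr2L:6557512-6557612, plus strand: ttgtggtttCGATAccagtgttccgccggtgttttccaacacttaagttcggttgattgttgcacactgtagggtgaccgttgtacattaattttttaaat
ATPsynCF6, chr3R:23356180-23356277, minus strand: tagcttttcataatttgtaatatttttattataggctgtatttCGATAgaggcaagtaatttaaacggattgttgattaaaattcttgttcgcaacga
ATPsynbeta, chr4:1030982-1031082, plus strand: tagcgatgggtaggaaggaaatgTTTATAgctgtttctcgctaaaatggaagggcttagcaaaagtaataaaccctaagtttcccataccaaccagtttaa

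The share of A+T within 100 bp of the summit had a median of 68.7% over the occupied members, against 67.7% over all occupied protein-coding genes. TATAAA occurred within 100 bp of the summit in 14 of 19 occupied members (73.7%), against 44.7% of all occupied genes. CGATA occurred in 7 of the 19 (36.8%), against 37.3%. None of the 19 held GAGAG, the element of the GAGA factor, in that window, against 15.3% of all occupied genes. The replication-related element TATCGATA, which holds CGATA and is bound by DREF, likewise had no match in the 19 windows, against 6.43%. Within 250 bp of the TSS, however, TATCGATA occurred in 4 of the 19 (21.1%), against 13.4% of all occupied genes. GAGAG occurred there in 6 of the 19 (31.6%), against 44.4%. A count of 0 among 19 genes carries little weight, and a match of letters is not a measured site.

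Of the 87 nuclear oxidative phosphorylation genes, 19 were occupied (21.8%, 95% Wilson interval 14.5 to 31.6), against a background of 16.5% over all protein-coding genes (2302 of 13945). The background lies inside the members' interval, so at this number of genes the set as a whole was not distinguishable from other protein-coding genes. Intervals here cover the counting of genes only. In complex I 12 of 40 genes were occupied (30%, interval 18.1 to 45.4), the only complex whose interval lay above the background. That did not hold in either replicate: the strongest regions of replicate 2 gave 11 of 40 (interval 16.1 to 42.8), against 16.4% of all genes, and those of replicate 3 gave 8 of 40 (10.5 to 34.8), against 15.4%. With every joint region it was 20 of 40 (35.2 to 64.8), against 42.4%. In complex V the count was 3 of 15, in complex IV 2 of 16, in complex III 1 of 9 and in complex II 1 of 7. The intervals of the 5 complexes overlapped, so no difference between complexes was resolved.

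**Figure D1:**
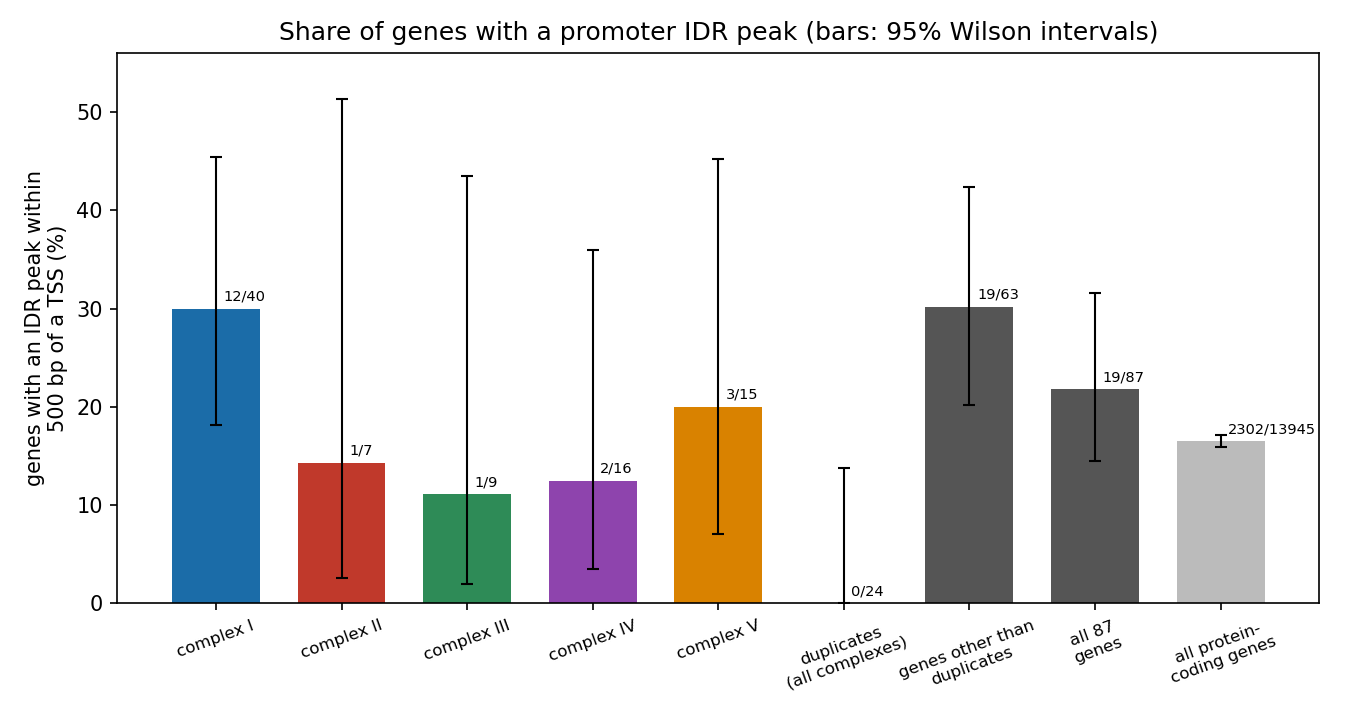
Share of genes with an IDR peak summit within 500 bp of a TSS, in percent, by complex, for the duplicates, the other members, all 87 members and, last, all 13945 protein-coding genes. Column heights are shares and the lines are 95% Wilson intervals; the duplicates sit at 0 of 24 and complex I at 12 of 40.

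Occupancy was found only outside the duplicates. None of the 24 duplicates was occupied, which allows a share of up to 12.5%. Of the other 63 members 19 were occupied (30.2%, interval 20.2 to 42.4), against 16.5% of all protein-coding genes. That background was not cleared of copies, so the shares are not on a like footing. A head-to-head neighbour, described below, was also more frequent at these 63 (63.5%) than at all genes (36.2%). The part of either in the difference was not tested. The strongest regions of replicate 2 gave 18 of these 63 (interval 18.9 to 40.7), against 16.4% of all genes. Those of replicate 3 gave 15 of the 63 (interval 15 to 35.6), against 15.4%. In replicate 3 the interval thus held the share of all genes. Duplicates make up 6 of the 40 genes of complex I, but 8 of 16 in complex IV and 3 of 7 in complex II. With the duplicates left aside, 12 of 34 genes of complex I were occupied (35.3%), 1 of 4 in complex II, 1 of 6 in complex III (16.7%), 2 of 8 in complex IV (25%) and 3 of 11 in complex V (27.3%). Complex I stayed first and complex III last, and the intervals again overlapped.

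Of the 18 parent genes among the members 9 were occupied and 9 were not. ND-24, ND-49, ND-51 and ND-20 were occupied, while ND-24L, ND-49L, ND-51L1, ND-51L2 and ND-20L were not. The same held for SdhC and SdhCL, UQCR-11 and UQCR-11L, COX5B and COX5BL, ATPsynCF6 and ATPsynCF6L, and ATPsynbeta and ATPsynbetaL. In the other pairs with both genes among the members neither was occupied, and these parents were SdhA, SdhB, UQCR-14, UQCR-6.4, COX4, COX7A, COX7C, ATPsynG and ND-B14.5A. In the whole joint list, strong and weak regions together, 3 of 24 duplicates had a summit within 500 bp (12.5%), against 38 of the other 63 members (60.3%) and 42.4% of all protein-coding genes. Those 3 were COX7AL2 with a signal of 56.22, COX4L with 29.49 and ND-51L2 with 22.11, and their summits lay 459, 408 and 249 bp downstream of the TSS. COX7A and COX4, the parents of COX7AL2 and COX4L, had no joint region, so these 2 pairs ran the other way. Replicate 2 alone had a summit at 5 of 24 duplicates and 48 of 63 others, against 50.8% of all genes, and replicate 3 alone at 5 of 24 and 32 of 63, against 37.3%. Duplicates can share sequence with their parent genes, and the labels do not say how reads that match both were placed, so the part of this in the low count was not tested.

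The position of neighbouring genes moved with occupancy. A protein-coding gene on the opposite strand began within 1000 bp upstream, head to head, at 44 of the 87 members (50.6%), against 5052 of all 13945 genes (36.2%). Among the duplicates this was so for 4 of 24 (16.7%), and among the other members for 40 of 63 (63.5%). Of the 44 members with a head-to-head neighbour 15 were occupied (34.1%), and of the 43 without it 4 were (9.3%). Over all protein-coding genes the shares were 29.8% with such a neighbour and 8.98% without. These shares of members mix the duplicates, none of them occupied, with the other members. Most duplicates had no such neighbour, and the share of up to 12.5% that their count allows takes in the 8.98%. With the duplicates left aside, 15 of 40 members with such a neighbour were occupied (37.5%, interval 24.2 to 53), against 29.8%. Without such a neighbour it was 4 of 23 (17.4%, interval 6.98 to 37.1), against 8.98%. Both intervals held the share of all genes. The part of this arrangement in the members' count was not tested.

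**Figure D2:**
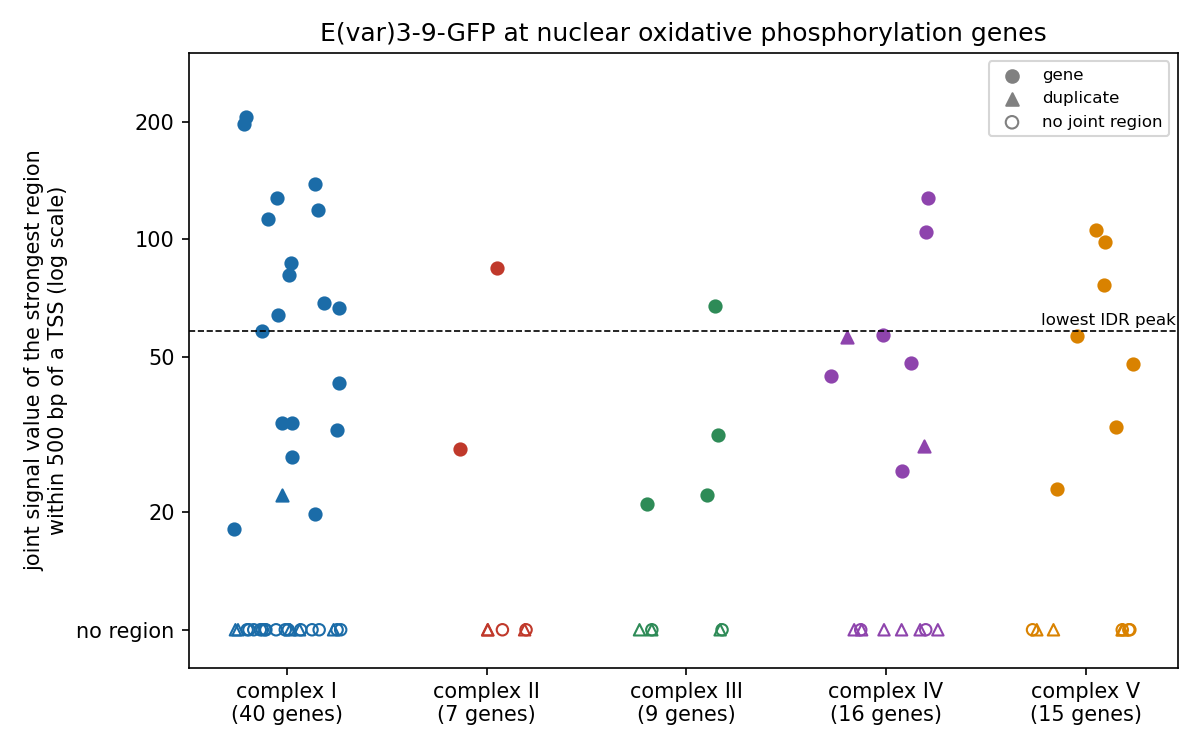
Joint signal, the authors' score on a log axis, of the strongest region within 500 bp of a TSS at each of the 87 members, by complex, with triangles for duplicates and open symbols for genes without a joint region. The 19 occupied members lie on or above the dashed line at 58.17, and complex I reaches 206.1.

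The peaks at the members were of ordinary strength. Their joint signal had a median of 98.3 (range 58.17 to 206.1, n = 19), against 101.2 (58.17 to 1206) at all occupied protein-coding genes. Their median rank among the IDR peaks was 1457, against 1383.5. Within complex I the median was 99.98, over 12 genes. The highest-ranked member stood at 315, and among the 859 strongest IDR peaks 3 of 87 members were represented (3.45%), against 5.25% of protein-coding genes.

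Complex I gave the strongest as well as the weakest peaks. ND-ASHI, an accessory subunit of its membrane arm, had a signal of 206.1 at chrX:6679277-6679482 and ranked 315, with replicate signals of 125.0 in replicate 2 and 81.39 in replicate 3. Its summit lay 253 bp upstream of the TSS and 269 bp from the TSS of Fum1, the fumarase of the tricarboxylic acid cycle, so that 1 peak lay near the starts of 2 genes for mitochondrial enzymes. ND-MWFE, a small accessory subunit, had 197.8, with 82.95 in replicate 2 and 115.4 in replicate 3. Its summit lay 31 bp from the TSS of TppII, a peptidase gene, and 190 bp upstream of its own. ND-42, another accessory subunit, had 138.4 at chr3R:22027409-22027828, with 82.63 and 52.29 in replicates 2 and 3. It shares its peak with Cchl, the lyase that attaches haem to cytochrome c.

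Complex I holds 7 nuclear core subunits, those conserved from bacteria that carry the redox chemistry, and 5 of them were occupied, against 16.5% of all genes (this grouping was made after their values were seen). The strongest regions of replicate 2 also gave 5 of the 7, but those of replicate 3 gave only 2. ND-24 and ND-51 form the NADH-oxidising tip. ND-24 had a signal of 127.8 at chrX:17631976-17632395, with 72.68 in replicate 2 and 54.24 in replicate 3, and ND-51 had 112.8 at chr2L:6062675-6063094, with 74.23 and 39.55. ND-49, ND-23 and ND-20 lie on the path to ubiquinone. ND-49 had 87.11 at chr4:570680-571099, with 51.3 and 21.99 in replicates 2 and 3. ND-23 had 68.67, with 44.63 and 19.38, and ND-20 had 63.81, with 45.66 and 22.45. Of the other core subunits ND-30 had only a weaker joint region, of 33.85, and ND-75 had no region in any list. In all 5 occupied core subunits replicate 2 had the higher signal.

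The remaining occupied genes of complex I were accessory subunits. ND-SGDH had 118.9 at chr3L:12138410-12138829, with 51.03 in replicate 2 and 64.91 in replicate 3, and its summit lay 36 bp upstream of the TSS. ND-MNLL had 81.05, with 47.6 and 27.61. ND-MLRQ, whose human counterpart has been reassigned to complex IV, had 66.69, with 36.94 and 27.99. ND-B22 had 58.17, with 32.25 and 16.6, and its region was the last to pass the threshold, at rank 3438. ND-B22 is thus the member just inside the threshold, and COX6B, with 56.81 at rank 3566, is the member just outside.

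Complexes II and III had 1 occupied gene each and complex IV had 2, all within the range of signals in complex I. SdhC had a signal of 84.46 at chr3R:11209851-11210270, with 70.04 in replicate 2 and 16.89 in replicate 3, the least even pair of the 19. The replicate 3 summit lay 116 bp from the joint summit there, and Tctp, a translationally controlled tumour protein gene, began 186 bp away. UQCR-11 had 67.56 at chr3L:25120415-25120834, with 31.61 and 32.89 in replicates 2 and 3, and no other protein-coding TSS lay within 500 bp of its summit. COX5B had 127.6 at chr2L:6557352-6557771, with 80.85 and 50.41, and COX5A had 104.5 at chr3R:11819309-11819728, with 72.67 and 30.73. Both are structural subunits around the catalytic core of cytochrome c oxidase.

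The ATP synthase had 3 occupied genes. ATPsynCF6 had 105.8 at chr3R:23356020-23356439, with 56.83 in replicate 2 and 44.83 in replicate 3, and its peak also lies 48 bp from the TSS of Sec13, a gene for a vesicle coat and nuclear pore protein. ATPsynE, a subunit of the membrane part, had 98.3 at chr3R:14326744-14327163, with 47.54 and 48.94. Its summit lay 7 bp downstream of the TSS, in the 5' untranslated region. ATPsynbeta had 76.6 at chr4:1030822-1031241, with 50.99 and 24.13. Its summit lay 452 bp upstream of the TSS, but 57 bp from that of CG11076, so it is a member by the distance rule rather than by nearness.

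Chromosome 4, the small and largely heterochromatic chromosome, carried 2 members, ND-49 and ATPsynbeta, and both were occupied. On that chromosome 32 of 80 protein-coding genes were occupied (40%). Both members were also among the strongest regions of replicate 2, but neither was among those of replicate 3. On 3R the count was 6 of 19 members, on X 4 of 13, on 3L 3 of 20, on 2L 3 of 16 and on 2R 1 of 17. The share of all protein-coding genes was 16.5% over the 6 arms together, and it was not counted for these arms singly. With that share unknown and so few members per arm, no arm was singled out.

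**Figure D3:**
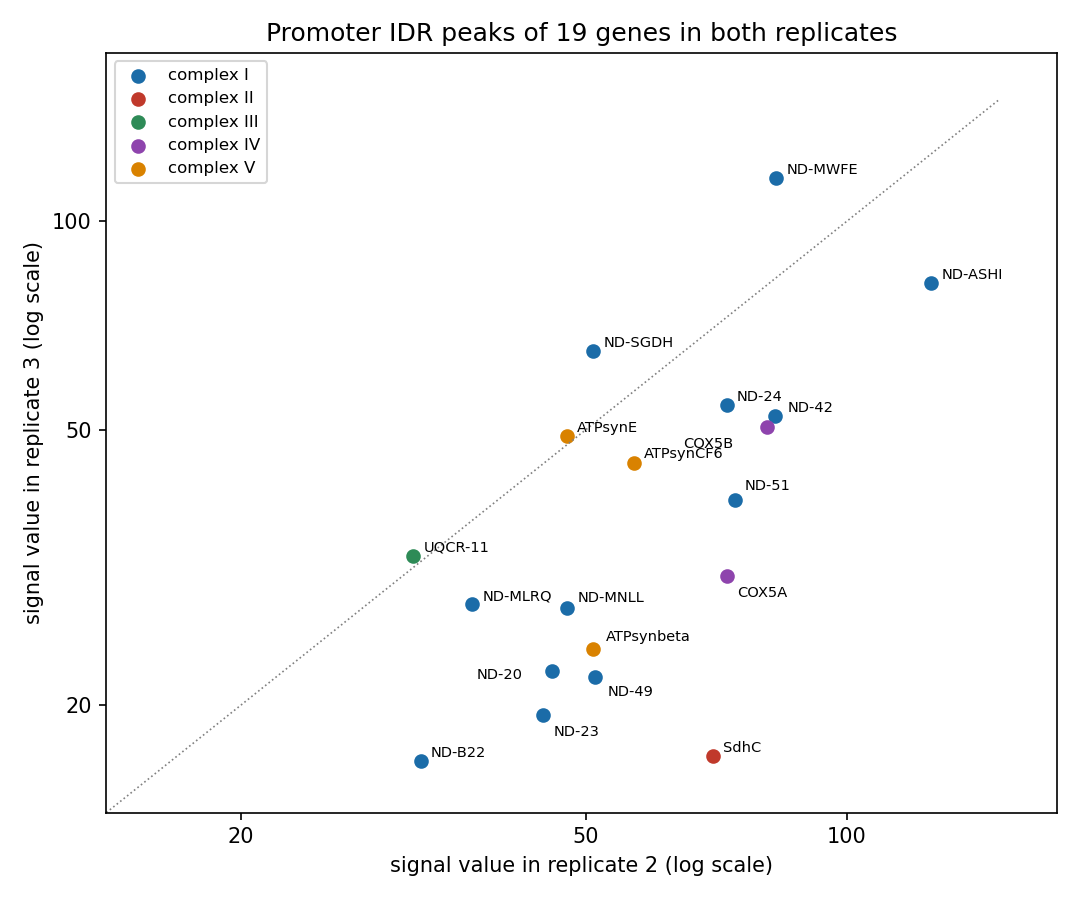
Signal in replicate 2 (horizontal) and replicate 3 (vertical) of the region matched to each of the 19 occupied members, in the authors' score on log axes. Replicate 2 is higher for 15 genes, and ND-MWFE and SdhC lie farthest to either side.

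Both replicates had a summit within 150 bp of the joint summit at all 19 occupied members. The replicate 2 signals ran from 31.61 to 125.0 with a median of 51.3, and those of replicate 3 from 16.6 to 115.4 with a median of 32.89. Replicate 2 was higher for 15 of the 19 genes, and since the scale of each list is not stated this is not a difference between embryos. Across the 19 genes the log2 signals of both lists gave a Pearson r of 0.613, and their ranks a Spearman rho of 0.642; this is a description, since all genes share the same 2 libraries. When each replicate's own 3438 strongest regions were used, 17 of the 19 remained in replicate 2, 13 in replicate 3 and 12 in both. Replicate 2 alone then gave 18 occupied members (20.7%), against 16.4% of protein-coding genes, and replicate 3 alone 15 (17.2%), against 15.4%.

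**Figure D4:**
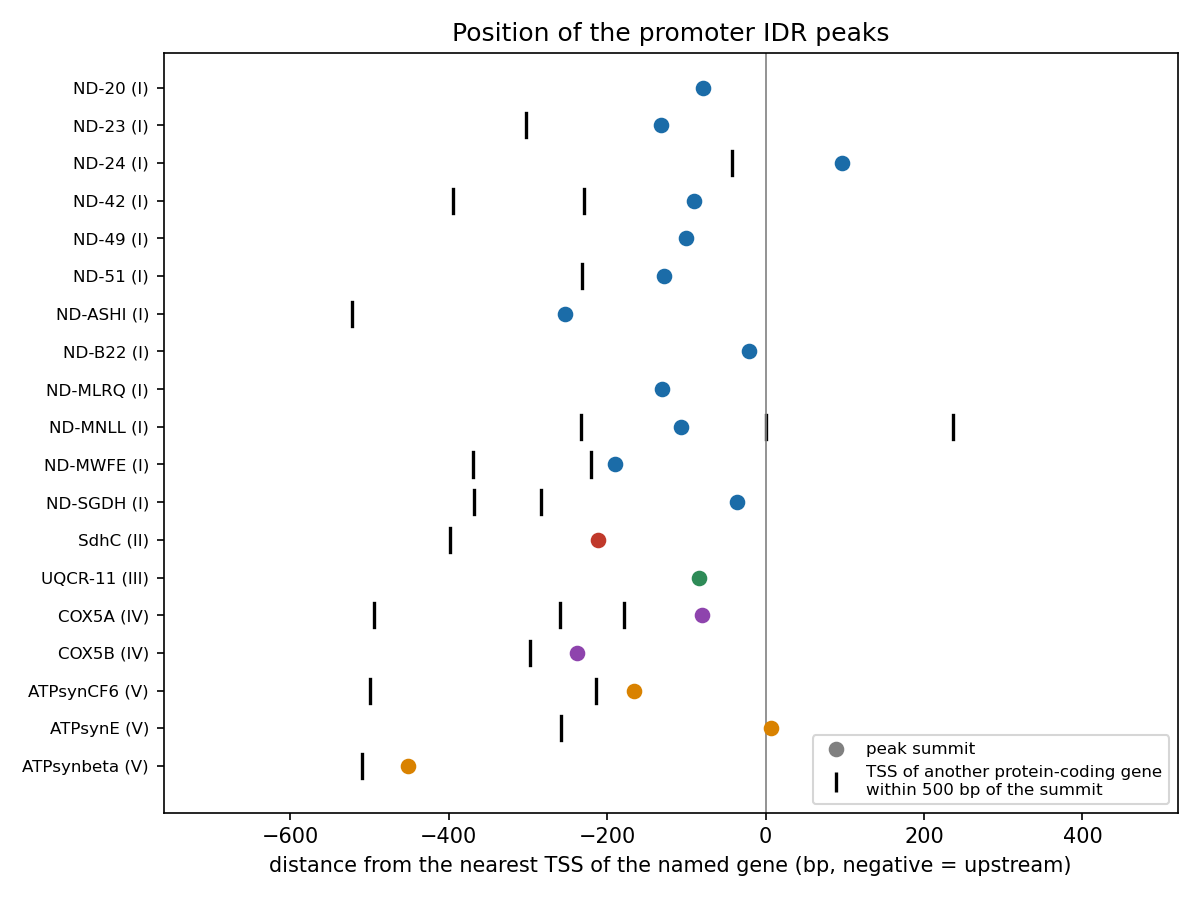
Distance from the IDR summit to the TSS of each of the 19 occupied members and to the TSSs of other protein-coding genes within 500 bp of the same summit, in bp along the member's direction of transcription. Most summits lie upstream, and many lie between the TSSs of a pair of genes.

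Most summits lay a short way upstream of the start site, while those of ATPsynE, ND-B22 and ND-SGDH lay within 36 bp of it. In 17 of the 19 members the summit was upstream of the TSS (89.5%), against 91.2% of all occupied protein-coding genes, and the median position was -107 bp, against -150 bp. Of the 19 summits 11 were in intergenic sequence, 6 in introns of the same or another gene and 2 in 5' untranslated regions. In 14 members the summit also lay within 500 bp of another protein-coding TSS (73.7%), against 59.7% of all occupied genes. The member's own TSS was the nearest of all annotated TSSs for 12 of the 19, counting ND-MNLL, which shares it with CG45089. At the other 7 the TSS of another gene was closer, as at COX5B, where the TSS of IFT52, an intraflagellar transport gene, lay 60 bp from the summit.

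Below the IDR threshold more members had some signal. A summit of the joint list, at any strength, lay within 500 bp of 41 members (47.1%), against 42.4% of protein-coding genes. By complex these were 20, 2, 4, 8 and 7 genes for complexes I to V. Replicate 2 had a summit at 53 members (60.9%), against 50.8%, and replicate 3 at 37 (42.5%), against 37.3%. These lists were made as peaks and background together, so a low entry is not by itself evidence of binding.

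Of the 68 members without an IDR peak 22 had a weaker joint region, with signals of 18.1 to 56.81 and a median of 31.98. COX6B, a subunit of complex IV, was the strongest of them, with 28.96 in replicate 2 and 25.03 in replicate 3. ATPsynC, the subunit that forms the rotating ring, followed with 56.6, and 26.69 and 26.48 in replicates 2 and 3. COX8 with 48.21 and ATPsynF with 47.94 had a matching summit in replicate 2 only, of 31.98 and 35.81. COX7B had 44.68 and ND-B17 42.76, each with a match in both replicates. ND-AGGG had 33.93 and ATPsyngamma, the central shaft of the ATP synthase, had 33.06. The 10 strongest members below the threshold also include COX7AL2 and ND-30.

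The other 46 members had no joint region at their promoters, and 28 of these had none in any of the lists. Among the 28 were ND-75, the largest core subunit of complex I, SdhA, the flavoprotein of complex II, and ATPsynB. UQCR-Q had a summit in both replicates without a joint region. The nearest IDR peak to the 68 members lay at a median of 7727.5 bp, between 912 bp for SdhA and 146429 bp for ND-B17.2. SdhA was the only member of the 68 whose nearest IDR peak lay under 1000 bp away.

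Genes beside the members in the same biology gave further values, from lists chosen with results of these data known. Of 10 subunit and cytochrome c genes outside the symbol rule (12 symbols listed) 4 were occupied, against 16.5% of all genes. Cyt-c-d, a cytochrome c, had a signal of 178 and levy, a subunit of complex IV, had 108.6. The alpha subunit of the ATP synthase, blw, had 90.97 and cype, a further subunit of complex IV, had 69.99. Cyt-c-p, the other cytochrome c listed, was not occupied and had a joint region of 18.21, at rank 23593. Of 42 assembly factor symbols listed 14 matched a gene, so most of that list was not analysed here, and 3 of the 14 were occupied, namely CIA30, which acts in complex I assembly, with 354.9, Cox17, a copper chaperone for complex IV, with 154.9 and Ttc19, of complex III, with 103.5. The CIA30 signal was above that of every member. Of 22 genes of the tricarboxylic acid cycle and pyruvate dehydrogenase (26 symbols listed) 7 were occupied, with Idh3g, a subunit of isocitrate dehydrogenase, at 229.8 and Fum1 at 206.1, from the region it shares with ND-ASHI. Of 20 genes for mitochondrial DNA upkeep and nuclear regulators (22 symbols listed) 5 were occupied, namely mtSSB, the single-strand binding protein of mitochondrial DNA, with 193.1, the nuclear receptor ERR with 121.5, mTerf5 with 102.5, the forkhead factor foxo with 91.22 and Dref, the gene of the factor that binds TATCGATA, with 72.24.

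Several sequence elements near the start sites were more frequent in the members than in protein-coding genes at large. Motif distances were taken from 1 TSS per gene, the one nearest the IDR summit in occupied genes and the 5' end in others. The E-box CAGCTG occurred within 250 bp of that TSS in 34 of 87 members (39.1%), against 26.2% of all protein-coding genes. It occurred in 10 of the 19 occupied members (52.6%), against 31.7% of all occupied genes. It occurred in 3 of 24 duplicates (12.5%), against 31 of the 63 other members (49.2%), and no duplicate is among the occupied. GGTCACAC, the core of a promoter element known as motif 1, occurred in 17 members (19.5%), against 8.3%. TATCGATA occurred in 12 members (13.8%), against 9.72%, CGATA in 52 (59.8%), against 59.6%, and GAGAG in 32 (36.8%), against 44.1%. These 3 differed less from the genome at large than the E-box and motif 1. TATAAA occurred in 55 (63.2%), against 54.9%, and in 16 of the 19 occupied members (84.2%), against 58.3% of all occupied genes. GCGCANGCG, the binding letters of Ewg, the fly counterpart of human NRF-1, occurred in none of the members, against 2.27%. With a window of 500 bp TATAAA occurred in 84.2% of the occupied members, against 77.7% of all occupied genes, a smaller difference than at 250 bp. All motifs were searched on both strands, and TATCGATA always includes a CGATA.

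Of the 8 motifs searched, that with the largest ratio of members to all genes was the NRG element, a short palindrome described from fly nuclear genes of oxidative phosphorylation, so its frequency among them is not independent of how it was found. It occurred within 250 bp of the 1 TSS used per gene in 13 members (14.9%), against 1.41% of all genes. All 13 matches lay downstream of that TSS, at 208 to 246 bp with a median of 220 bp, in introns or, at ND-MNLL, across the edge of an intron. Another TSS of the same gene would give another distance, as at ND-B22 and ATPsynF, so the narrow range depends on this choice. The matches are printed for 8 members with 10 bases to either side, on the strand of the gene in dm6, with the matching letters in capitals.
ND-MNLL, chrX:7893573-7893602, minus strand: actcgtttttATTACGTAATgcggcaaaat
ND-51, chr2L:6062499-6062528, minus strand: atgccatcaaATTATGTAATttttgcgcaa
ND-B22, chr2L:13370792-13370821, minus strand: attcccaaatATTATATAATgagcaagtgc
SdhD, chr3R:23760378-23760407, minus strand: aacagctttcATTATATAACcaaaccgttt
UQCR-C1, chr3R:14890462-14890491, plus strand: gaggatttaaATTACGTAATtgtaaatgat
COX7B, chr3L:17425683-17425712, plus strand: aaccttaaaaATTACATAATgtggataagc
ATPsynCF6, chr3R:23355841-23355870, minus strand: aaacaattgtATTACATAACctttttaagg
ATPsynD, chr3R:19095201-19095230, plus strand: attgaaaaaaATTACATAATttttgcgagc

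**Figure D5:**
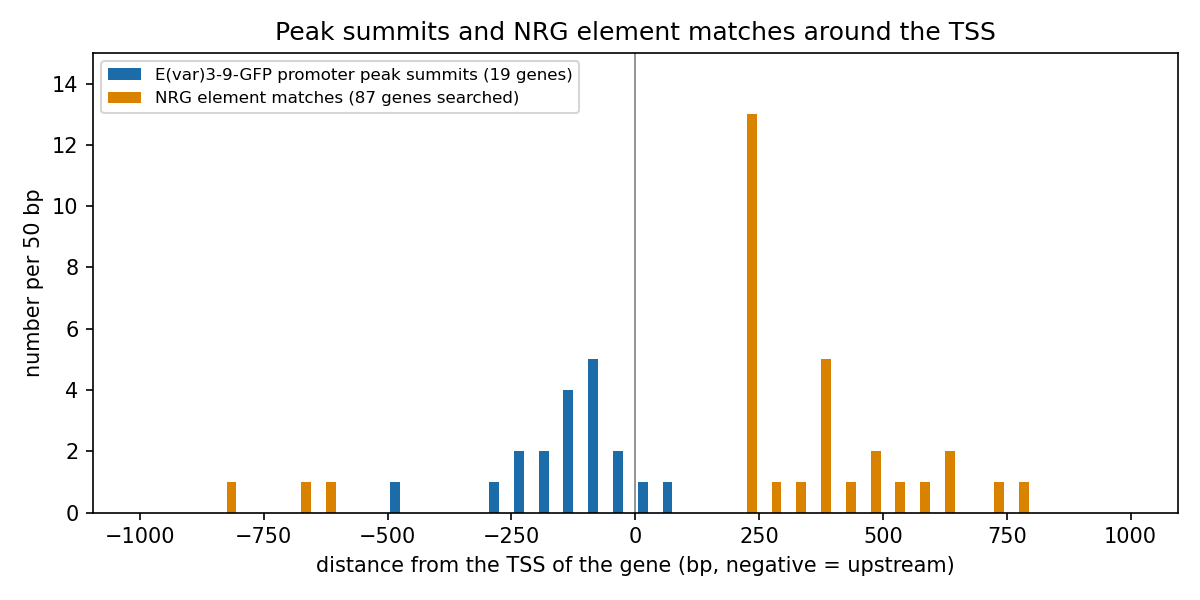
Number per 50 bp of NRG element matches at the 87 members and of IDR summits at the 19 occupied members, by distance from the TSS in bp, negative upstream. The 29 downstream matches lie between 208 and 756 bp and 3 lie upstream, while 17 of 19 summits lie upstream.

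In a wider window of 1000 bp, chosen after the positions were seen, 28 of 87 members had a downstream match (32.2%), against 2.27% of all genes, while upstream matches occurred in 3 (3.45%), against 3.68%. Between 200 and 500 bp downstream the count was 23 members (26.4%), against 0.911%. Complex V had the most, with 9 of 15 genes, against 9 of 40 in complex I. Matches to the element and the IDR summits did not coincide. In the 4 occupied members with a match within 250 bp of the TSS, the match lay 240 to 374 bp from the IDR summit. No IDR summit of a member had a match within 100 bp. Chromatin was sheared to 200 to 800 bp, so these distances cannot show whether E(var)3-9 is absent from the element. In the wider window 9 of 19 occupied members had a downstream match (47.4%), against 19 of the 68 others (27.9%), and 1 of 24 duplicates had it, against 27 of the 63 other members.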

How the data were processed

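ChIP-seq of GFP-tagged E(var)3-9 came from embryos, in 2 biological replicates. The deposited lists give for each region a signal value, a score assigned by the authors' caller, and the offset of the summit from the region's start. Which aligner, caller and IDR threshold were used is not stated in the labels. Regions in dm6 were used, and those in dm3 were not. Summits were placed within 500 bp of TSSs of 18164 genes on 6 chromosome arms, from Ensembl release 115 on the same assembly. Replicate summits were matched within 150 bp. Head-to-head genes start on opposite strands within 1000 bp. Sequences were read from the RefSeq Release 6 genome. Shares carry 95% Wilson intervals, which cover counting of genes only. No test was run, since 1 group has no contrast. Read depth is unknown. The assignment was checked on simulated summits. Genes were named by the rule that takes every occupied member, the 10 strongest members below the threshold, genes sharing a peak, duplicate pairs and occupied genes of the pathway lists; ND-75, SdhA, ATPsynB, UQCR-Q and ND-B17.2 were added after their values were seen. The members and lists were chosen with earlier results of these data known. Alternatives were another distance, 1 TSS per gene, stronger or weaker regions, single replicates, overlap and nearest TSS. Python 3.11.15 was used with numpy 2.4.6, pandas 2.3.3, scipy 1.17.1 and matplotlib 3.10.9.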

Additional observations from a re-analysis of the deposited data

How the results depend on the processing

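The count of occupied members was 19, and 2302 for all protein-coding genes. It was 15 and 1526 with summits within 200 bp, 3 and 732 among the 859 strongest IDR peaks, 41 and 5912 with every joint region, and 12 (13.8%) and 1661 (11.9%) where only the nearest TSS counted. At 1000 bp, with 1 TSS per gene or by region overlap it stayed between 18 and 20. Complex I moved to 3 genes among the strongest peaks and to 20 with every joint region. Complex II had 0 at 200 bp, among the strongest peaks and by nearest TSS, and 2 at 1000 bp and with every joint region. Complex III had 0 among the strongest peaks and 4 with every joint region. Complex IV had 1 at 200 bp and by nearest TSS, 0 among the strongest peaks and 8 with every joint region. Complex V had 0 among the strongest peaks, 7 with every joint region and 1 by nearest TSS. Leaving out each replicate gave 15 to 18 members, 2152 to 2292 genes, and 8 to 11, 0 to 1, 0 to 1, 2 to 3 and 3 to 4 genes for complexes I to V. The cause of these shifts was not tested. No paired analysis was possible because there is 1 group. Unknown read depth limits what the absence of a region shows.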
